A study of Mus musculus with 110 samples.

Results

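The 10 genes described here belong to de novo lipogenesis, the making of new fatty acids from carbohydrate carbon. They are the enzyme genes Acly, Acaca, Acacb, Fasn, Elovl6, Scd1, Scd2 and Scd3 and the transcription factor genes Srebf1 and Mlxipl. They were chosen by name, with earlier results of these data known, and each symbol matched 1 of the 56884 gene rows of the count tables, so all 10 are reported.

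Acly cleaves cytosolic citrate into acetyl-CoA, acetyl-CoA carboxylase (Acaca in the cytosol, Acacb at the outer mitochondrial membrane) turns acetyl-CoA into malonyl-CoA, and Fasn joins these units into palmitate. Elovl6 lengthens palmitate to stearate, and the stearoyl-CoA desaturases Scd1, Scd2 and Scd3 put a double bond into these saturated chains. Srebf1 encodes SREBP1, which carries the insulin signal to these genes in liver, and Mlxipl encodes ChREBP, which carries the carbohydrate signal in liver and fat.

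RNA was sequenced from liver, interscapular brown (iBAT), inguinal white (iWAT) and epididymal white (eWAT) adipose tissue of 28 single-housed male C57BL/6N wild-type mice, 16 weeks of age at the end of the experiment and fed ad libitum. All mice ate a cysteine-free diet for 7 days at 22 °C, with 0.86% methionine (Ctrl) by the series' design text, where the study's own text gives a slightly lower content, or 0.12% methionine (MetR, methionine restriction). The Ctrl_RT and MetR_RT mice then stopped at room temperature, and the Ctrl_CE and MetR_CE mice spent a further 24 h at 4 °C (CE, cold exposure), so that the cold groups were also on diet for longer. The 28 livers, 27 iBAT, 27 iWAT and 28 eWAT samples gave 110 libraries, with 1 mouse behind each, and the mouse identity joins the tissues.

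Of these, 105 were used for the tests. The study left out 1 iBAT and 4 eWAT libraries as outliers without naming them, and the 5 that its mean counts point to, iBAT Ctrl_CE replicate 5 and eWAT Ctrl_RT replicates 2, 4 and 5 and MetR_RT replicate 7, were left out here, with values given with and without them where they matter. Each liver group held 7 libraries. In iBAT, Ctrl_RT and Ctrl_CE held 6 and each MetR group 7, in iWAT, MetR_CE held 6 and each other group 7, and in eWAT, Ctrl_RT held 4, MetR_RT 6 and each cold group 7. In iBAT, the first replicates of Ctrl_CE, MetR_CE and MetR_RT were 3 libraries in which the treatment tag differed from the sample title, and the title was used. The liver, iWAT and eWAT titles and tags of those 3 mice all name the group of the iBAT title. Library totals ran from 6987895 to 33444374 counts in liver and from 12672686 to 33372110 counts in the 3 depots. The hepatocyte markers Alb, Apoa1, Ttr, Serpina1c, Cyp2e1 and Tat summed to 47221 CPM or more in every liver, and the adipocyte markers Adipoq, Plin1, Cidec, Lep, Fabp4 and Lipe summed to 10118 CPM or more in every depot library used, against at most 45.97 CPM in liver. A sum over such a list does not show which of its genes, or which cells, carried it. CPM are counts scaled to a common library total, after TMM scaling within a tissue.

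A gene was called changed, and is said to have risen or fallen, where edgeR's quasi-likelihood test gave a Benjamini-Hochberg adjusted p under 0.05 over all genes of the tissue and the change was at least 1.5-fold. Every adjusted p below comes from that test unless another is named, and every log2 fold change is followed by its standard error. Shares of all genes, given as background, also come from it unless another setting is named. Counts under other settings without such a share show only how far a count depended on the setting. Comparisons against Ctrl_RT share those libraries and are therefore set side by side only. In bulk tissue, fewer cells of a type and less RNA per cell cannot be told apart.

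By GENCODE vM21 positions on GRCm38, 4 members lie on chromosome 11, at chr11:60199089-60222581 (minus strand) for Srebf1, chr11:84129672-84401651 (plus strand) for Acaca, chr11:100476353-100528000 (minus strand) for Acly and chr11:120805846-120824547 (minus strand) for Fasn. The 3 desaturase genes are neighbours on chromosome 19, with Scd3 at chr19:44203269-44244016 (plus strand), Scd2 at chr19:44293674-44306864 (plus strand) and Scd1 at chr19:44394455-44407879 (minus strand). Acacb lies at chr5:114146535-114250761 (plus strand), Mlxipl at chr5:135089890-135138382 (plus strand) and Elovl6 at chr3:129532355-129638495 (plus strand). Counting of near-identical sequence touched some of them. Of the 50-base words of its longest transcript, Acaca shared 52.6% with the pseudogene Gm5182, whose own counts came to 1.18% of those of Acaca. Scd1, Scd2 and Scd3 shared 4.66%, 4.01% and 6.69% of their words with other genes, chiefly one another, and Elovl6 shared 4.40%. Srebf1 shared 1.41% of its words with the overlapping gene Rai1, whose counts came to 5.52% of those of Srebf1, and its gene-level count joins the SREBP1a and SREBP1c transcripts. Acly, Acacb, Fasn and Mlxipl shared none. Annotated genes on the opposite strand overlap Acaca, Acacb, Elovl6, Scd3, Srebf1 and Mlxipl, and the library kit named is not a directional one, so reads shared by such a pair cannot be told apart.

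RefSeq promoter windows (the 250 bases before a start site, GRCm38.p6) were found for 8 of the 10 members, 11 windows in all. Scd1 and Scd2 had none in the table. They were searched on both strands for the E-box CACGTG, the spaced pair of E-box cores known as the carbohydrate response element, the sterol regulatory element (each allowing free positions), the NF-Y letters CCAAT and the GC box GGGCGG, which occur in 6.02%, 0.280%, 0.192%, 33.8% and 32.7% of all 32851 windows of that length. Of these, 3 members whose levels the results below turn on are shown, with the matches in capitals.

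Fasn, chr11:120824548-120824797, minus strand: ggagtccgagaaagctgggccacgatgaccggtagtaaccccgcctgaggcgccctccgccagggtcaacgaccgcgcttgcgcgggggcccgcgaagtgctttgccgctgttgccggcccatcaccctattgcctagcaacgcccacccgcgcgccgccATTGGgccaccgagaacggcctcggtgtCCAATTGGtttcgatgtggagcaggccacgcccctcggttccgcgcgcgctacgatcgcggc
Acly, chr11:100528001-100528250, minus strand: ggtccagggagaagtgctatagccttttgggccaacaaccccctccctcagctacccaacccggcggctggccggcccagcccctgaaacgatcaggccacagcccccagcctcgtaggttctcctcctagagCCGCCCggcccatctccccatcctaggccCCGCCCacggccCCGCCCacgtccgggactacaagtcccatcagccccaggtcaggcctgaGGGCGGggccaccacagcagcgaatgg
Mlxipl, second window, chr5:135089640-135089889, plus strand: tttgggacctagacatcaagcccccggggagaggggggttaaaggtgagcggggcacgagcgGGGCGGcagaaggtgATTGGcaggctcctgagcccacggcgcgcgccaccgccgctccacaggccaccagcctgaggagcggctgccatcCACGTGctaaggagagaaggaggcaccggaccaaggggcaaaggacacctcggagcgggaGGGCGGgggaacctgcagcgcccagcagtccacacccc

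In the Fasn window the capitals mark CCAAT 3 times, at 90, 62 and 59 bases before the start, the last 2 overlapping in opposite orientation. In the Acly window they mark the GC box 4 times, and in the Mlxipl window 1 E-box at 98 bases before the start, 1 CCAAT on the minus strand and 2 GC boxes. Acacb held 1 CCAAT, and the 3 Srebf1 windows held CCAAT or the GC box. None of these letters occurred in the windows of Acaca, Elovl6 and Scd3 or in the other Mlxipl window, and neither the spaced E-box pair nor the sterol element letters occurred in any of the 11. Only these exact forms were searched, so near matches are not excluded.

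In untreated mice (Ctrl_RT) most of the enzyme genes were lower in liver than in fat by a wide margin, whereas Srebf1 differed little and Mlxipl was higher in liver than in white fat. Liver Fasn was between 301 and 2506 CPM with a median of 659.7 CPM in 7 mice, iBAT Fasn between 34194 and 55895 CPM with a median of 47688 CPM in 6 mice and iWAT Fasn between 12119 and 39473 CPM with a median of 19802 CPM in 7 mice. In the 4 eWAT libraries Fasn was 3813, 15856, 6853 and 8750.1 CPM. No Ctrl_RT liver reached the lowest Ctrl_RT library of any depot.

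In 1 edgeR fit over all tissues, with TMM factors over all libraries, 8 of the 10 members were lower in liver than in iBAT (adjusted p under 0.05, which 52.3% of all genes passed in either direction). The log2 differences in level, liver minus iBAT, were -7.17 ± 0.40, adjusted p = 1.13e-30 for Scd2, -5.55 ± 0.44, adjusted p = 2.81e-21 for Fasn and -5.06 ± 0.31, adjusted p = 1.08e-27 for Acaca. Against iWAT, 8 members were lower in liver and 1 was higher (background 55.1%), and against eWAT, 7 were lower and 1 higher (background 52.9%). The one higher in liver was Mlxipl, by a log2 difference of 1.503 ± 0.17, adjusted p = 8.25e-13 over iWAT and 2.19 ± 0.22, adjusted p = 2.42e-15 over eWAT, while against iBAT it differed by -0.17 ± 0.18, adjusted p = 0.445. Elovl6 was the only enzyme gene without a difference called against eWAT (0.51 ± 0.45, adjusted p = 0.340). Srebf1 passed in none of the 3, with -0.39 ± 0.20, adjusted p = 0.0857 against iBAT, but with the mouse as a block it was lower in liver than in iBAT (-0.70 ± 0.16, adjusted p = 8.03e-05) and iWAT (-0.43 ± 0.15, adjusted p = 0.00867). The counts came in 3 tables, 1 for liver, 1 for iBAT and iWAT and 1 for eWAT, so tissue and any difference in how the tables were made cannot be told apart. Scd3 in liver was at most 3 counts in any library, and its differences against liver rest on those counts.

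The order of the members differed between liver and fat. Per kilobase of exon, Scd1 was highest in untreated liver at 853 ± 773 CPM per kb (SD, n = 7), followed by Mlxipl at 110.2 ± 16.4, Srebf1 at 91.3 ± 54.01, Fasn at 80.4 ± 68.2 and Acly at 49.7 ± 20.2 CPM per kb, and among these last 4 the SDs of Srebf1 and Fasn overlapped those of the other 3, whereas Mlxipl stood above Acly beyond both SDs. Elovl6, Acacb and Acaca followed at 12.7 ± 5.91, 9.39 ± 5.91 and 4.45 ± 1.51 CPM per kb, and Scd2 was at 0.952 ± 0.278 CPM per kb. In iBAT Scd1 stood at 9881 ± 1914 and Fasn at 4213 ± 697 CPM per kb (n = 6), then Acly at 1248 ± 242.7, Acacb at 345 ± 52.1, Elovl6 at 234 ± 11.6 and Acaca at 166 ± 26.5 CPM per kb. The exon length joins all annotated exons of a gene. For Acaca it is 17.07 kb, against 9513 bases in its longest transcript, so its place in iBAT depends on the length used. Scd2, Mlxipl and Srebf1 in iBAT were at 154 ± 31.9, 139 ± 15.7 and 134 ± 20.2 CPM per kb and overlapped one another's SD. The mean level per kb of Mlxipl and Srebf1 was above that of Fasn in liver, by less than the SD of Fasn, and below it in every depot. Scd3 was the lowest member in every tissue, at 0.175 ± 0.0368 CPM per kb in iBAT.

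**Figure D1:**
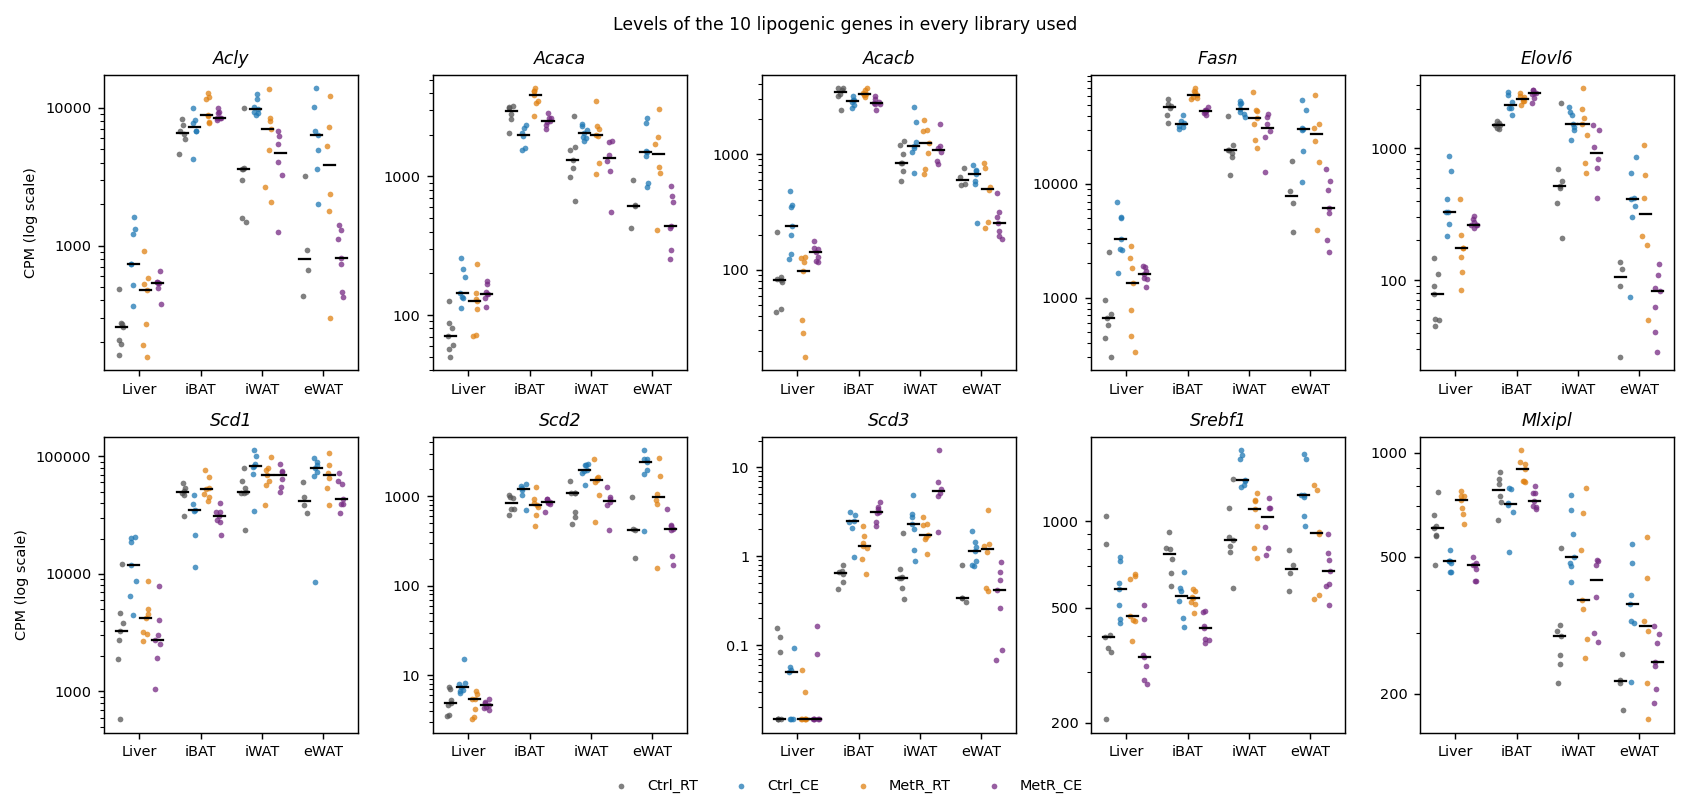
CPM (log axis) of each of the 10 genes in every library used, by tissue and group, with the median of each group as a black bar. Libraries listed at 0, which occur for Scd3 in liver, are drawn at the bottom of the axis. For Acaca, Acacb, Fasn, Scd1 and Scd2 every Ctrl_RT liver lies below every Ctrl_RT depot library, whereas for Acly, Elovl6, Srebf1 and Mlxipl the Ctrl_RT ranges of liver and at least 1 depot overlap.

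Cold on the control diet raised 7 of the 10 genes in liver, and none fell. Against this, 7.28% of all 22143 genes tested rose and 4.64% fell. The rise covered the path from citrate to the desaturases, with Acly (3.55-fold), Acaca (2.23-fold), Acacb (2.995-fold), Fasn (4.45-fold), Elovl6 (5.40-fold), Scd1 (3.12-fold) and Scd2 (1.61-fold). The median log2 fold change was 1.37 against -0.01 over all genes.

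Liver Fasn, the palmitate synthase, was 301 to 2506 CPM (median 659.7) in Ctrl_RT and 1659.5 to 6929 CPM (median 3297) in Ctrl_CE. Of the 7 Ctrl_CE livers, 6 lay above the highest Ctrl_RT liver, replicate 5, which at 2506 CPM stood well above the next at 960 CPM. The log2 fold change was 2.15 ± 0.42, adjusted p = 0.000226. Elovl6, the elongase that acts on palmitate, was the member whose 2 groups did not overlap, with 44.7 to 148 CPM (median 78.8) against 217 to 871 CPM (median 329.8) and a log2 fold change of 2.43 ± 0.31, adjusted p = 9.30e-07. Acly, which supplies the acetyl-CoA, went from 160.4 to 484 CPM (median 254.4) to 362 to 1619.8 CPM (median 738) (1.83 ± 0.33, adjusted p = 7.39e-05). The groups overlapped for Acly, Acaca, Acacb and Fasn through Ctrl_RT replicate 5 alone, which was also the highest Ctrl_RT liver for Elovl6 and Scd1.

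The carboxylase genes rose by 1.16 ± 0.22, adjusted p = 0.000163 for Acaca and 1.58 ± 0.37, adjusted p = 0.00168 for Acacb. Scd1, the main desaturase gene of liver, was 583 to 12202 CPM (median 3285) in Ctrl_RT and 4466 to 20438 CPM (median 11820) in Ctrl_CE (1.64 ± 0.46, adjusted p = 0.00691). Scd2 was a minor transcript in liver, at 3.48 to 7.41 CPM (median 4.95) and 6.27 to 15.05 CPM (median 7.36) (0.69 ± 0.19, adjusted p = 0.00596), and without Ctrl_CE replicate 2, the highest library, its log2 fold change was 0.48 and no longer reached 1.5-fold. The regulator genes did not rise with the enzymes. Srebf1 differed by 0.18 ± 0.24, adjusted p = 0.631 and Mlxipl was lower by a difference that passed the adjusted p but not 1.5-fold (-0.35 ± 0.07, adjusted p = 0.000617).

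Marker lists, that of hepatocytes among them, moved with the liver groups. The endothelial markers Pecam1, Cdh5 and Kdr, all 3 detected, summed to 50.2 to 70.4 CPM in Ctrl_RT, 93.1 to 168 in Ctrl_CE, 72.8 to 91.8 in MetR_RT and 128 to 149 CPM in MetR_CE livers, so that none of the 3 treated groups overlapped Ctrl_RT. In the same order the macrophage markers Adgre1, Cd68, Csf1r, Ptprc and Mrc1, all 5 detected, summed to 95.6 to 128, 115 to 419, 66.7 to 104 and 129 to 149 CPM, the hepatocyte markers to 56858 to 87106, 55079 to 76312, 54721 to 79307 and 47221 to 57050 CPM, and the epithelial markers Epcam, Krt8, Krt18, Krt19 and Cdh1, all 5 detected, to 467 to 857, 349 to 471, 454 to 616 and 318 to 453 CPM. Their part in the lipogenic results of liver, after cold, restriction or both, was not tested.

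Methionine restriction at room temperature raised 2 members in liver, where 2.88% of all genes rose and 4.02% fell. Elovl6 rose by 1.22 ± 0.30, adjusted p = 0.00419 with MetR_RT livers at 84.5 to 413 CPM (median 176), and Acaca by 0.74 ± 0.22, adjusted p = 0.0150 with MetR_RT livers at 71.2 to 235 CPM (median 127). Both groups overlapped Ctrl_RT. Acly and Fasn, at 0.76 ± 0.32, adjusted p = 0.0987 and 0.67 ± 0.41, adjusted p = 0.284, did not pass. The MetR_RT livers spread widely for both, with Fasn from 329 CPM in replicate 1 to 2870.2 CPM in replicate 3. Without MetR_RT replicate 3 Acaca was not called, and without Ctrl_RT replicate 5 the count was 4. Acacb was unlike Acaca, with MetR_RT livers at 17.7 to 130.1 CPM (median 97.2) and a log2 fold change of -0.18 ± 0.37, adjusted p = 0.800. Mlxipl differed by 0.22 ± 0.07, adjusted p = 0.0356, under 1.5-fold.

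With both stimuli (MetR_CE against Ctrl_RT), 3 members rose, against 6.25% of all genes. These were Elovl6 (1.74 ± 0.31, adjusted p = 4.77e-05, without overlap of the groups), Acly (0.999 ± 0.32, adjusted p = 0.0164) and Acaca (0.94 ± 0.22, adjusted p = 0.00126). Fasn was 1236 to 1917 CPM (median 1604) in MetR_CE livers, a narrow range beside the other 3 groups, and its change did not pass (0.87 ± 0.41, adjusted p = 0.110). Without Ctrl_RT replicate 5, 5 members were called.

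Within the cold, livers of restricted mice held less of 3 members than livers of control mice (MetR_CE against Ctrl_CE, background 4.10% lower). Scd1 fell from 4466 to 20438 CPM (median 11820) to 1056 to 7942 CPM (median 2738) (-1.97 ± 0.46, adjusted p = 0.00424). Scd2 was lower without overlap of the groups (-0.84 ± 0.19, adjusted p = 0.00308), and Fasn was lower with overlap (-1.28 ± 0.41, adjusted p = 0.0363). Fasn lost its call when any 1 of 8 libraries was left out, 3 of Ctrl_CE (replicates 2, 6 and 7) and 5 of MetR_CE (replicates 1, 3, 5, 6 and 7), and without Ctrl_CE replicate 4 the count was 5. The interaction of diet and temperature was called for Elovl6 alone, where the log2 effect of cold was smaller on the restricted diet (-1.91 ± 0.42, adjusted p = 0.0171, background 1.06% of genes).

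Every interaction estimate in liver but that of Scd3 was below 0, with -2.08 ± 0.64, adjusted p = 0.0851 for Scd1, -1.96 ± 0.58, adjusted p = 0.0728 for Fasn and -1.59 ± 0.45, adjusted p = 0.0615 for Acly. Without Ctrl_RT replicate 5 the interaction was called for 5 members, without Ctrl_CE replicate 4 for 4, without MetR_RT replicate 1 for 3 and without MetR_RT replicate 7 or MetR_CE replicate 1 for 2, and DESeq2 called 4. On the restricted diet itself, cold changed 1 member (MetR_CE against MetR_RT, background 2.44% lower). Mlxipl fell, from 619.9 to 776 CPM (median 729) to 424 to 499 CPM (median 471) with no overlap (-0.62 ± 0.07, adjusted p = 8.78e-07), and without MetR_RT replicate 3 the count was 2.

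In brown fat the same comparisons gave changes of both signs among the 10 genes. After cold on the control diet, 1 member rose and 1 fell, where 4.98% of all 23915 genes tested rose and 9.73% fell. By adjusted p alone 8 of the 10 passed, against 33.2% of all genes, and the members' median log2 fold change was -0.19 against -0.08 over all genes. Scd3, a desaturase gene at the edge of detection, rose from 0.430 to 0.794 CPM (median 0.647) to 0.992 to 3.18 CPM (median 2.49) without overlap (1.92 ± 0.25, adjusted p = 5.46e-07). Scd1, at 31167 to 58944 CPM (median 49722) in Ctrl_RT, fell to 11350 to 47332 CPM (median 34707) (-0.62 ± 0.22, adjusted p = 0.0285). That call of Scd1 was lost when Ctrl_RT replicate 2 or 3 or Ctrl_CE replicate 2 or 4 was left out, and with the 3 libraries grouped by their treatment tag. That tag grouping disagrees with the titles and tags of the same mice in the other tissues.

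Fasn in brown fat was lower after cold by less than 1.5-fold, from 34194 to 55895 CPM (median 47688) to 30390 to 40209 CPM (median 33484) (-0.43 ± 0.09, adjusted p = 0.000313), and Acaca likewise (-0.53 ± 0.11, adjusted p = 0.000428). Srebf1 was also lower under the fold limit (-0.48 ± 0.10, adjusted p = 0.000207). Elovl6 went the other way, from 1413 to 1612 CPM (median 1503) to 1795 to 2692 CPM (median 2138) with no overlap and 0.56 ± 0.08, adjusted p = 8.98e-07, just under 1.5-fold. The brown adipocyte markers Ucp1, Cidea, Cox7a1 and Pank1, all 4 detected, summed to 8395 to 11304 CPM in Ctrl_RT and 14662 to 16967 CPM in Ctrl_CE, against 9809.9 to 11898 CPM in MetR_RT and 14717 to 17820 CPM in MetR_CE. Other lists moved too. The hepatocyte markers, 1 to 6 of 6 detected, summed to 45.9 to 133 CPM in Ctrl_RT, 3.01 to 47.7 in Ctrl_CE, 4.20 to 16.6 in MetR_RT and 4.44 to 29.6 CPM in MetR_CE. In the same order the macrophage markers, all 5 detected, summed to 30.1 to 62.2, 27.4 to 54.4, 20.8 to 37.6 and 15.9 to 26.9 CPM and the endothelial markers, all 3 detected, to 542 to 646, 602 to 806, 575 to 666 and 669.8 to 767 CPM. Their part in the differences in brown fat was not tested.

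Methionine restriction at room temperature raised 3 members of brown fat and lowered none (background 0.535% higher and 1.97% lower). Elovl6 rose to 2127 to 2637 CPM (median 2353) without overlap with Ctrl_RT (0.66 ± 0.07, adjusted p = 2.37e-06), Scd3 rose by 1.10 ± 0.26, adjusted p = 0.00828 and Acly by 0.59 ± 0.15, adjusted p = 0.0112. Acly lay close to the fold limit and lost its call when any 1 of 6 libraries was left out, in Ctrl_RT replicates 1, 2 and 6 and in MetR_RT replicates 3, 4 and 5. Fasn was 55647 to 70016 CPM (median 61114), higher by 0.42 ± 0.09, adjusted p = 0.00250, and Srebf1 was lower without overlap (-0.49 ± 0.09, adjusted p = 0.00117), both under 1.5-fold.

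After both stimuli Elovl6 (0.77 ± 0.07, adjusted p = 2.46e-09) and Scd3 (2.33 ± 0.25, adjusted p = 1.56e-08) rose, and Scd1 (-0.65 ± 0.21, adjusted p = 0.0169) and Srebf1 (-0.82 ± 0.09, adjusted p = 3.66e-08) fell, where 4.36% of genes rose and 10.3% fell. Srebf1 in brown fat was 594 to 915 CPM (median 772) in Ctrl_RT and 376 to 489 CPM (median 426) in MetR_CE, with no overlap, while Fasn differed from Ctrl_RT by -0.07 ± 0.09, adjusted p = 0.574. Against MetR_RT, MetR_CE held less Scd1 (-0.83 ± 0.20, adjusted p = 0.00231) and more Scd3 (1.23 ± 0.22, adjusted p = 9.46e-05), with 8.53% of all genes called. No member was called by edgeR for MetR_CE against Ctrl_CE or for the interaction (background 1.64% and 0.372%), where 5 and 2 members had an unadjusted p under 0.05 and DESeq2 called 0 in both. By adjusted p alone, with no fold limit, 6 members passed for MetR_RT against Ctrl_RT, 7 for MetR_CE against MetR_RT, 3 for MetR_CE against Ctrl_CE and 1 for the interaction, where 6.80%, 25.5%, 4.78% and 0.903% of all genes did.

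Inguinal fat resembled liver in the number of members raised by cold on the control diet. There 7 of the 10 rose and none fell, where 5.99% of all 26428 genes tested rose and 9.94% fell, and the members' median log2 fold change was 0.97 against -0.11 over all genes. The 7 were not the liver's 7. Scd3, Srebf1 and Mlxipl rose in iWAT and not in liver, and Acaca, Acacb and Scd1 rose in liver and were not called in iWAT. These differences between the tissues are tested in the comparison of liver with the depots.

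Fasn in iWAT was 12119 to 39473 CPM (median 19802) in Ctrl_RT and 38569 to 53388 CPM (median 45530) in Ctrl_CE (1.11 ± 0.26, adjusted p = 0.00193), and 6 of 7 cold libraries lay above the highest Ctrl_RT library, replicate 5. Replicate 5 of Ctrl_RT is the mouse that also had the highest liver Fasn of its group, and in iWAT it was the highest Ctrl_RT library for all 10 members. Acly rose by 1.41 ± 0.40, adjusted p = 0.00827, Elovl6 by 1.15 ± 0.38, adjusted p = 0.0227 and Scd2 by 1.09 ± 0.27, adjusted p = 0.00282. Scd3 went from 0.330 to 1.82 CPM (median 0.568) to 0.889 to 4.87 CPM (median 2.30) (1.77 ± 0.41, adjusted p = 0.00166). Both transcription factor genes rose, Srebf1 from 589 to 1397 CPM (median 858) to 1318 to 1764 CPM (median 1395) (0.71 ± 0.15, adjusted p = 0.000869) and Mlxipl from 215 to 529 CPM (median 293.6) to 421 to 753 CPM (median 499) (0.84 ± 0.23, adjusted p = 0.00552). Scd1, at 23481 to 79129 CPM (median 49910) before cold, differed by 0.63 ± 0.26, adjusted p = 0.0603, Acaca by 0.54 ± 0.26, adjusted p = 0.128 and Acacb by 0.58 ± 0.26, adjusted p = 0.0909.

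In the same libraries the macrophage markers, all 5 detected, summed to 614 to 1097 CPM in Ctrl_RT, 169.8 to 774 in Ctrl_CE, 143 to 566 in MetR_RT and 107 to 257.4 CPM in MetR_CE. The brown adipocyte markers, all 4 detected, went from 53.5 to 760.5 CPM to 720.2 to 5487, 373 to 4721 and 2892 to 6946 CPM in the same order, and the adipocyte markers from 14387 to 19054 to 14899 to 22580, 15438 to 22880 and 21402 to 23697 CPM. The hepatocyte markers, 3 to 6 of 6 detected, summed in that order to 720.4 to 2601, 177 to 1694, 193 to 575 and 248.6 to 565 CPM. Their part in the lipogenic changes was not tested. A single library, MetR_RT replicate 6, held 18935 CPM of the muscle markers Acta1, Myh4, Myh1, Ckm, Mylpf and Tnnt3, and values without it are given where they differ.

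Methionine restriction at room temperature raised Fasn (0.85 ± 0.26, adjusted p = 0.0183), Elovl6 (1.09 ± 0.38, adjusted p = 0.0398) and Scd3 (1.42 ± 0.41, adjusted p = 0.0126) in iWAT, 3 of 10 where 4.25% of all genes rose and 7.36% fell. Fasn was 20633 to 64674 CPM (median 38433) in MetR_RT. Elovl6 lost its call when any 1 of 9 libraries was left out, Ctrl_RT replicates 1 to 4, 6 and 7 and MetR_RT replicates 3, 4 and 6, the last being the muscle-rich library (1.02 ± 0.40, adjusted p = 0.0701). The count was 7 without Ctrl_RT replicate 5, 5 without MetR_RT replicate 1 and 1 without MetR_RT replicate 3, which had the highest Fasn of its group in liver, iWAT and eWAT.

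After both stimuli a single member, Scd3, was raised against Ctrl_RT (background 8.05% higher), with the largest log2 fold change against Ctrl_RT of any of the 10 genes in any tissue. It was 1.87 to 15.6 CPM (median 5.42) in MetR_CE with no overlap with Ctrl_RT, a log2 fold change of 3.23 ± 0.42, adjusted p = 1.36e-06. Fasn was 12852 to 40933 CPM (median 31367) in MetR_CE and differed from Ctrl_RT by 0.50 ± 0.27, adjusted p = 0.155. Without Ctrl_RT replicate 5 the count was 3, and without MetR_CE replicate 4 it was 2.

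The interaction of diet and temperature in iWAT was called for Scd2 (-1.84 ± 0.39, adjusted p = 0.0146) and Fasn (-1.47 ± 0.38, adjusted p = 0.0340), both lower (background 1.14% lower). All other members but Scd3 also had estimates below 0, and the members' median was -1.10 against 0.04 over all genes. The number called depended on the setting, with 7 under DESeq2, 6 with edgeR's own low-count filter, and 1 without the muscle-rich library, where Fasn gave -1.43 ± 0.38, adjusted p = 0.0511. The 1.14% belongs to the main fit, and no share of all genes is given for these settings. Leaving out 1 library gave 7 without Ctrl_RT replicate 5, 6 without MetR_RT replicate 7, 5 without MetR_RT replicate 1 or Ctrl_CE replicate 7, and 4 without MetR_CE replicate 1 or 6. Fasn lost its call in 14 of the 27 such fits, those without Ctrl_RT replicates 1, 3, 6 and 7, MetR_RT replicates 3, 4 and 6, Ctrl_CE replicates 1 to 3 and MetR_CE replicates 2 to 5. Against Ctrl_CE, MetR_CE held less Scd2 (-1.17 ± 0.28, adjusted p = 0.0249) and Srebf1 (-0.60 ± 0.16, adjusted p = 0.0376), both without overlap, and more Scd3 (1.46 ± 0.39, adjusted p = 0.0373), where 2.27% of all genes were called. Without MetR_CE replicate 4 or 5 none of the 3 was called, and Scd3 and Srebf1 lost their calls in 7 and 9 of the 27 fits that left out 1 library. Against MetR_RT, Scd3 alone rose (1.81 ± 0.39, adjusted p = 0.00808, background 0.602% higher).

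In epididymal fat, after cold on the control diet, Scd2 (2.07 ± 0.59, adjusted p = 0.0426) and Srebf1 (0.92 ± 0.23, adjusted p = 0.0216) rose, 2 of 10 where 2.42% of all 27786 genes tested were called, and the members' median log2 fold change was 1.35 against -0.01 over all genes. Srebf1 was 706, 794, 574 and 661 CPM in the 4 Ctrl_RT libraries and 963 to 1706 CPM (median 1232) in Ctrl_CE, with no overlap. Scd2 was 203, 991, 430.4 and 421 CPM in Ctrl_RT and 410.0 to 3280.4 CPM (median 2407) in Ctrl_CE, where replicate 4 was the lowest. Larger estimates than that of Srebf1 did not pass, 2.38 ± 0.74, adjusted p = 0.0621 for Acly, 2.24 ± 0.67, adjusted p = 0.0536 for Elovl6 and 1.84 ± 0.62, adjusted p = 0.0858 for Fasn. Neither Scd2 nor Srebf1 was called without Ctrl_RT replicate 1, 6 or 7, Scd2 lost its call in 8 further fits that left out 1 library, 5 of them without a Ctrl_CE and 3 without a MetR_CE library, and 7 members were called under DESeq2 or without MetR_RT replicate 1, 6 without Ctrl_CE replicate 4 and 5 without MetR_RT replicate 3.

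Replicate 4 of Ctrl_CE stood apart in eWAT. It held 8591 CPM of Scd1 where the other 6 Ctrl_CE libraries held 68612 to 96891 CPM, and 74.9 CPM of Elovl6 where the others held 301 to 858 CPM. The same mouse had the lowest Scd1 of its group in iWAT, at 34324 CPM, in iBAT, at 11350 CPM, and in liver, at 4466 CPM. Without it 6 members were called for cold in eWAT.

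Methionine restriction at room temperature gave no call in eWAT by edgeR (background 0.115% of genes), although 7 members had an unadjusted p under 0.05 and DESeq2 called 1. The members' median log2 fold change was 1.26 against -0.02 over all genes. Fasn was 3937 to 60925 CPM (median 27575) in MetR_RT, from 3937 CPM in replicate 1 to 60925 CPM in replicate 3, against 3813, 15856, 6853 and 8750.1 CPM in Ctrl_RT (1.68 ± 0.63, adjusted p = 0.371).

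With both stimuli the members' median log2 fold change against Ctrl_RT was -0.28 against -0.03 over all genes in eWAT. Acacb fell against Ctrl_RT, from 761, 636, 544 and 553 CPM to 186 to 459 CPM (median 252.2) (-1.19 ± 0.31, adjusted p = 0.0377, background 0.695% lower), a call lost when any 1 of 9 libraries was left out, Ctrl_RT replicates 1, 3 and 7 and MetR_CE replicates 2 to 7. Against Ctrl_CE, 8 of the 10 members were lower in MetR_CE, where 2.12% of all genes were lower and 2.23% higher. Acly was 1995 to 13960 CPM (median 6396) in Ctrl_CE and 419 to 1403 CPM (median 810.5) in MetR_CE, with no overlap (-2.94 ± 0.61, adjusted p = 0.00288). Elovl6 (-2.50 ± 0.55, adjusted p = 0.00425), Scd2 (-2.38 ± 0.48, adjusted p = 0.00253) and Fasn (-2.13 ± 0.51, adjusted p = 0.00771) fell furthest after it, followed by Acaca (-1.63 ± 0.36, adjusted p = 0.00440), Scd3 (-1.495 ± 0.49, adjusted p = 0.0479), Acacb (-1.17 ± 0.27, adjusted p = 0.00668) and Srebf1 (-0.91 ± 0.19, adjusted p = 0.00291), the latter without overlap of the groups. Scd1 (-0.53 ± 0.44, adjusted p = 0.533) and Mlxipl (-0.57 ± 0.22, adjusted p = 0.0954) did not pass. Scd3 passed narrowly and lost its call in 16 of 24 fits that left out 1 library, whereas between 7 and 8 members were called in each of those fits.

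The interaction of diet and temperature was called for 7 members in eWAT, all lower, where 1.20% of all genes were called lower, and the members' median log2 estimate was -2.97 against 0.05 over all genes. The estimates were -4.83 ± 0.98, adjusted p = 0.0107 for Acly, -4.69 ± 0.89, adjusted p = 0.00858 for Elovl6, -3.81 ± 0.82, adjusted p = 0.0146 for Fasn and -3.64 ± 0.77, adjusted p = 0.0134 for Scd2, with Scd3, Acaca and Srebf1 at -3.04, -2.89 and -1.34. The interaction of Scd3 lost its call in 8 of the 24 fits that left out 1 library, those without Ctrl_RT replicate 1, 3 or 7, MetR_RT replicate 2, 3 or 5, Ctrl_CE replicate 6 or MetR_CE replicate 3. For MetR_CE against MetR_RT, edgeR called none, 8 members had an unadjusted p under 0.05 and DESeq2 called 7 (edgeR background 0.112%). Without MetR_RT replicate 1, edgeR called 6, and without MetR_RT replicate 4, Ctrl_CE replicate 4 or MetR_CE replicate 1 it called 1.

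The calls of the interaction rested on which libraries were used. With all 28 eWAT libraries it was called for none of the 10 by edgeR (8 had an unadjusted p under 0.05), where 0.00318% of all genes were called, with -4.04 ± 0.98, adjusted p = 0.0776 for Acly, -3.35 ± 0.82, adjusted p = 0.0802 for Fasn and -3.57 ± 0.94, adjusted p = 0.104 for Elovl6. In that scaling, the left-out Ctrl_RT replicate 5 held 26904 CPM of Fasn, 6297 CPM of Acly and 686 CPM of Elovl6, each above the 4 Ctrl_RT libraries used, and Ctrl_RT replicate 4 held 3068 CPM of Fasn, under all 4. The mouse of this replicate 5 is also that of Ctrl_RT replicate 5 in liver and iWAT, where its libraries were kept. Ctrl_RT replicate 2 held 17.3 CPM of Scd3, where the other 27 libraries held at most 3.36 CPM, and 8048 CPM of the epididymis markers Crisp1, Lcn5, Lcn8, Spag11b and Adam7. For MetR_CE against Ctrl_CE, 7 members were called in all 28 libraries, among them Acly (-2.92 ± 0.71, adjusted p = 0.0170) and Fasn (-2.11 ± 0.59, adjusted p = 0.0349). The left-out libraries all came from the room-temperature groups. Adding them back could bear on that comparison only through the scaling, the estimated spread and the genes tested. The 3 left-out Ctrl_RT libraries had adipocyte marker sums of 12857 to 16877 CPM against 21773 to 32072 CPM in the 4 used, and the hepatocyte markers, 4 to 6 of 6 detected, summed to 3398 to 6791 CPM in the 4 used Ctrl_RT libraries against 255.2 to 4104, 454 to 2053 and 509 to 1229.8 CPM in Ctrl_CE, MetR_RT and MetR_CE. The study names 1 of these 6, Cyp2e1, among the genes repressed in eWAT under MetR_CE, and the sum does not show which marker carried it. The skeletal muscle markers, 4 or 5 of 6 detected, summed to 20.2 to 434 CPM in those Ctrl_RT libraries against 6.16 to 34.4, 5.54 to 14.5 and 6.26 to 11.99 CPM. Their part was not tested.

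**Figure D2:**
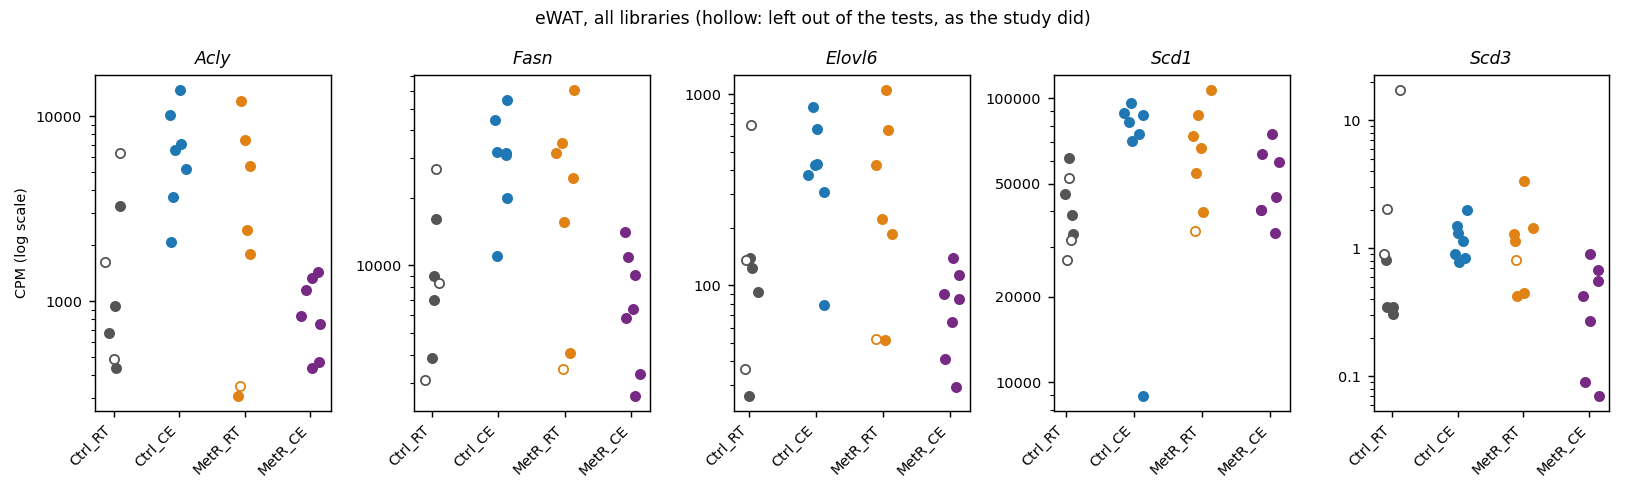
CPM (log axis) of Acly, Fasn, Elovl6, Scd1 and Scd3 in all 28 eWAT libraries by group, scaled together, where filled points were used in the tests and hollow points are the 4 libraries taken as those the study left out. The MetR_CE points of Acly and Elovl6 lie mostly below the Ctrl_CE points, and the single low Ctrl_CE point of Scd1 is replicate 4.

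**Figure D3:**
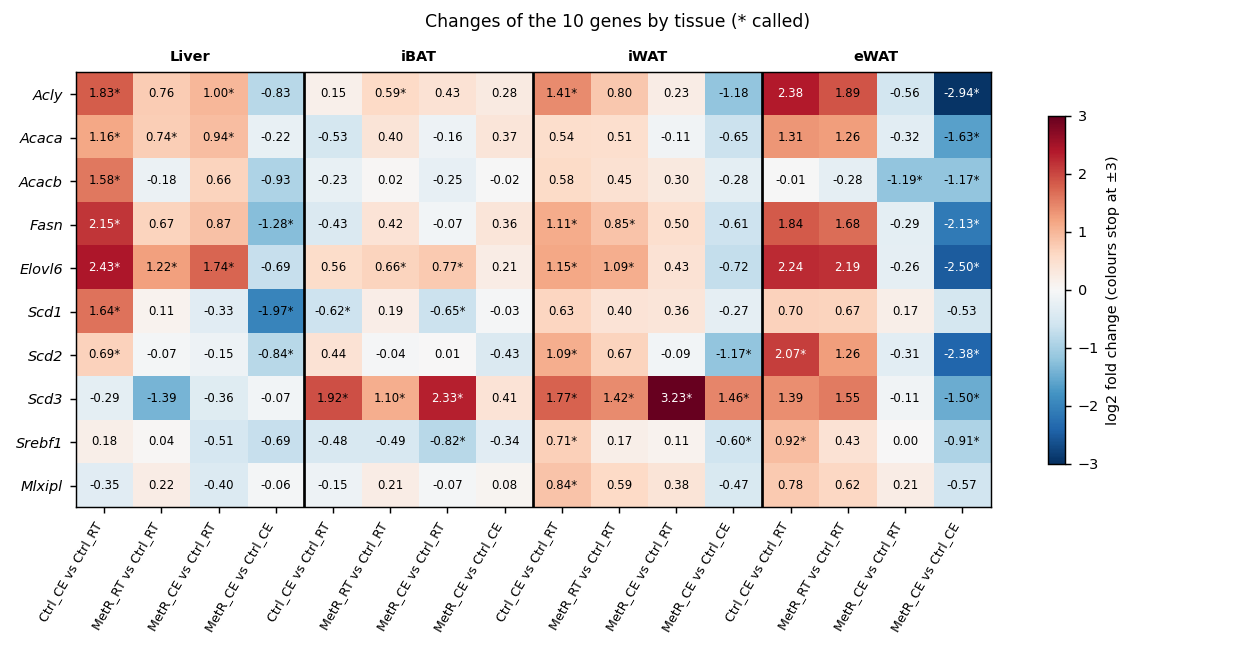
Log2 fold change of each gene in 4 comparisons per tissue, with red for higher and blue for lower and an asterisk where the change was called (adjusted p under 0.05 and at least 1.5-fold). Liver and iWAT each have 7 genes called higher for Ctrl_CE vs Ctrl_RT, and eWAT has 8 called lower for MetR_CE vs Ctrl_CE.

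A call in one tissue and not in another does not show that they differ, so the responses were compared in 1 edgeR fit over the 105 libraries, as the log2 fold change in liver minus the mean of those in the 3 depots. That fit took 1 spread per gene for all tissues. In the separate fits the standard error of Fasn after cold was 0.09 in iBAT, 0.42 in liver and 0.62 in eWAT. Errors of the joint fit can thus be too wide against iBAT and too narrow against eWAT. For cold on the control diet, 4 of the 10 members differed by adjusted p, 3 upward and 1 downward, where 9.27% of all genes differed upward and 8.74% downward. The difference was above 0 for Acacb (1.47 ± 0.34, adjusted p = 0.000521), Scd1 (1.40 ± 0.41, adjusted p = 0.00774) and Fasn (1.31 ± 0.42, adjusted p = 0.0163). It was below 0 for Mlxipl (-0.84 ± 0.20, adjusted p = 0.000797). That mean joins depots that moved in opposite directions. In iBAT, iWAT and eWAT, Fasn gave -0.43 ± 0.09, 1.11 ± 0.26 and 1.84 ± 0.62, and Scd1 -0.62 ± 0.22, 0.63 ± 0.26 and 0.70 ± 0.52. Acacb gave -0.23 ± 0.08, 0.58 ± 0.26 and -0.01 ± 0.32. Mlxipl gave -0.15 ± 0.08, 0.84 ± 0.23 and 0.78 ± 0.26, against -0.35 ± 0.07 in liver. With the mouse as a block, 6 differed, as Acaca (0.82 ± 0.22, adjusted p = 0.00327) and Elovl6 (1.16 ± 0.35, adjusted p = 0.0116) joined them. In limma voom with the mouse as an estimated correlation of 0.0333, Acacb and Mlxipl differed, and with all 110 libraries Elovl6 joined the 4 of the edgeR fit. Counts from these other fits have no share of all genes beside them, here and in the comparisons that follow. Acly (0.51 ± 0.47, adjusted p = 0.623), Scd2 (-0.51 ± 0.39, adjusted p = 0.493) and Srebf1 (-0.20 ± 0.22, adjusted p = 0.731) did not pass in the edgeR fit.

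Against iBAT, 6 members had higher log2 fold changes after cold in liver (background 15.8%), led by Fasn (2.59 ± 0.53, adjusted p = 8.94e-05), Scd1 (2.27 ± 0.52, adjusted p = 0.000497) and Acacb (1.82 ± 0.42, adjusted p = 0.000706). Elovl6, Acaca and Acly also passed, and Srebf1 did so with the mouse as a block (0.95 ± 0.22, adjusted p = 0.000551). With all libraries Acly did not pass. Mlxipl did not pass against iBAT in the edgeR fit (-0.19 ± 0.25, adjusted p = 0.810). Against iWAT, Mlxipl alone differed (-1.21 ± 0.24, adjusted p = 3.92e-05, background 19.3%), and with the mouse as a block 4 did, with Scd1 (1.23 ± 0.33, adjusted p = 0.00336), Acacb (1.05 ± 0.34, adjusted p = 0.0183) and Fasn (1.11 ± 0.38, adjusted p = 0.0249). Against eWAT, Acacb (1.61 ± 0.44, adjusted p = 0.00626) and Mlxipl (-1.12 ± 0.27, adjusted p = 0.00147) differed (background 11.4%), and with the block also Scd1 (1.75 ± 0.38, adjusted p = 0.000441) and Scd2 (-1.15 ± 0.37, adjusted p = 0.0270). The difference for Acly between liver and eWAT had the opposite sign, -0.55 ± 0.62, adjusted p = 0.757, and was not called. For the other 9 members a difference between liver and iWAT was not shown without the block.

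For methionine restriction at room temperature no member differed between liver and the mean of the depots by edgeR (background 8.26%), and 1 had an unadjusted p under 0.05. Neither edgeR with the mouse as a block nor voom called any. With the block, Srebf1 differed between liver and iBAT (0.80 ± 0.21, adjusted p = 0.0105). With both stimuli 4 members differed (background 16.4%). The difference was above 0 for Elovl6 (1.42 ± 0.44, adjusted p = 0.0146), Acaca (1.12 ± 0.31, adjusted p = 0.00479) and Acacb (1.03 ± 0.34, adjusted p = 0.0233). It was below 0 for Mlxipl (-0.58 ± 0.20, adjusted p = 0.0310). Acaca gave 0.94 ± 0.22 in liver, against -0.16 ± 0.11, -0.11 ± 0.27 and -0.32 ± 0.41 in iBAT, iWAT and eWAT. Mlxipl gave -0.40 ± 0.07 in liver, against -0.07 ± 0.08, 0.38 ± 0.23 and 0.21 ± 0.25 in the same order. The block added Fasn (1.30 ± 0.32, adjusted p = 0.00164) and Acly (1.05 ± 0.35, adjusted p = 0.0249), voom called Mlxipl and Scd3, and with all libraries Mlxipl did not pass. Among single depots (background 14.9% for iBAT, 20.9% for iWAT and 9.42% for eWAT), Acaca differed from all 3, by 1.10 ± 0.38, adjusted p = 0.0327 against iBAT, 1.02 ± 0.38, adjusted p = 0.0420 against iWAT and 1.26 ± 0.40, adjusted p = 0.0277 against eWAT, though not against iBAT or iWAT with all libraries. Elovl6 and Acacb differed from eWAT (2.01 ± 0.57, adjusted p = 0.0110 and 1.85 ± 0.44, adjusted p = 0.00169), and Mlxipl and Scd3 from iWAT (-0.81 ± 0.25, adjusted p = 0.00889 and -3.62 ± 1.22, adjusted p = 0.0218). With the block, 5 members differed from iBAT and 5 from eWAT, Fasn in both (1.47 ± 0.39, adjusted p = 0.00370 and 1.78 ± 0.43, adjusted p = 0.00203), and Scd3 no longer differed from iWAT (-3.505 ± 1.35, adjusted p = 0.0540).

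**Figure D4:**
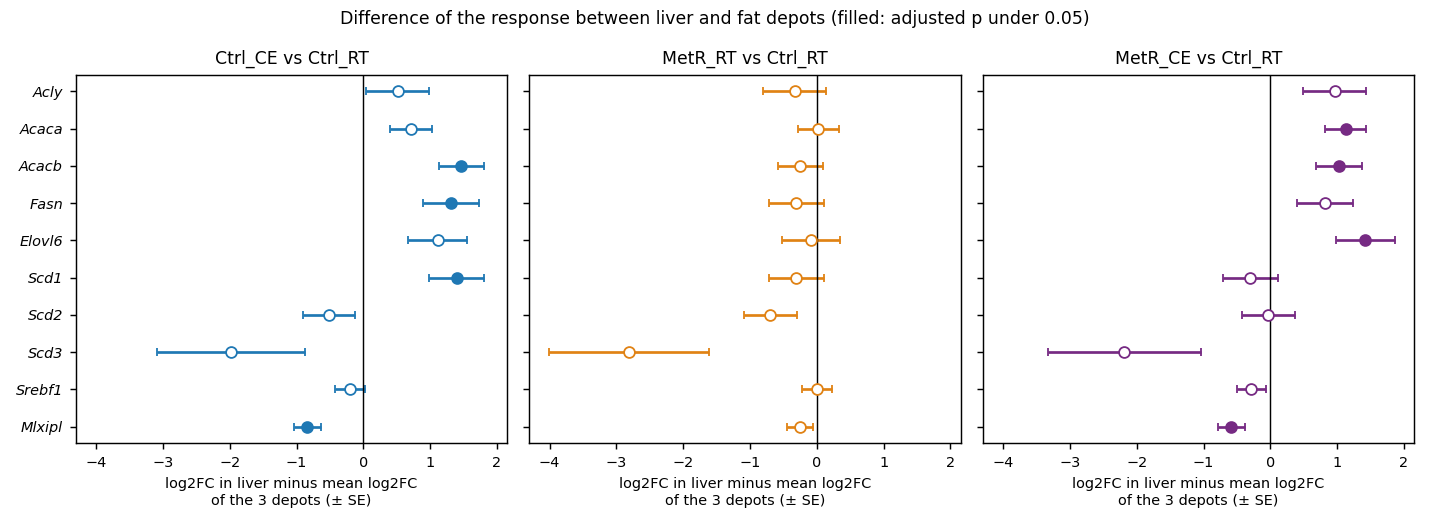
Log2 fold change in liver minus the mean log2 fold change of iBAT, iWAT and eWAT for each gene (points, with bars of 1 SE), for the 3 comparisons against Ctrl_RT, with filled points where edgeR's adjusted p was under 0.05. Acacb lies right of 0 and Mlxipl left of 0 in both cold panels, and no point is filled for MetR_RT vs Ctrl_RT.

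Since the same mice gave all tissues, the spread of Fasn within groups could be compared between tissues. The log2 CPM of Fasn minus its group mean was correlated over mice for 6 tissue pairs, with two-sided permutation of mice within groups and adjustment over the 6. Liver and eWAT gave Pearson's r = 0.730 (permutation p = 6.00e-05, adjusted 0.000360) and Spearman's rho = 0.647 (p = 0.000720, adjusted 0.00432) over 24 mice, and liver and iWAT Pearson's r = 0.630 (permutation p = 0.000820, adjusted 0.00246) and Spearman's rho = 0.468 (p = 0.0212, adjusted 0.0429) over 27 mice. The 2 white depots gave Pearson's r = 0.673 (permutation p = 0.00146, adjusted 0.00292) and Spearman's rho = 0.495 (p = 0.0215, adjusted 0.0429) over 23 mice. No pair with brown fat passed, with r = 0.207 (adjusted permutation p = 0.303) with liver, 0.312 (0.105) with iWAT and 0.335 (0.142) with eWAT.

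Without the 2 mice farthest from the median on the first axis, r was 0.552 (adjusted permutation p = 0.0102) for liver and eWAT, 0.455 (adjusted permutation p = 0.0428) for liver and iWAT and 0.575 (adjusted permutation p = 0.0428) for the white depots, and rho passed for liver and eWAT only. MetR_RT replicate 1 had deviations of -1.73 in liver, -0.81 in iWAT and -2.44 in eWAT on the log2 scale, and MetR_RT replicate 3 lay above the group mean by 1.40, 0.83 and 1.51. Ctrl_RT replicate 5 lay above its group mean by 1.83 in liver and 0.97 in iWAT, and the eWAT library of the same mouse was among those left out. With all libraries the 3 values of r were 0.781, 0.630 and 0.705.

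**Figure D5:**
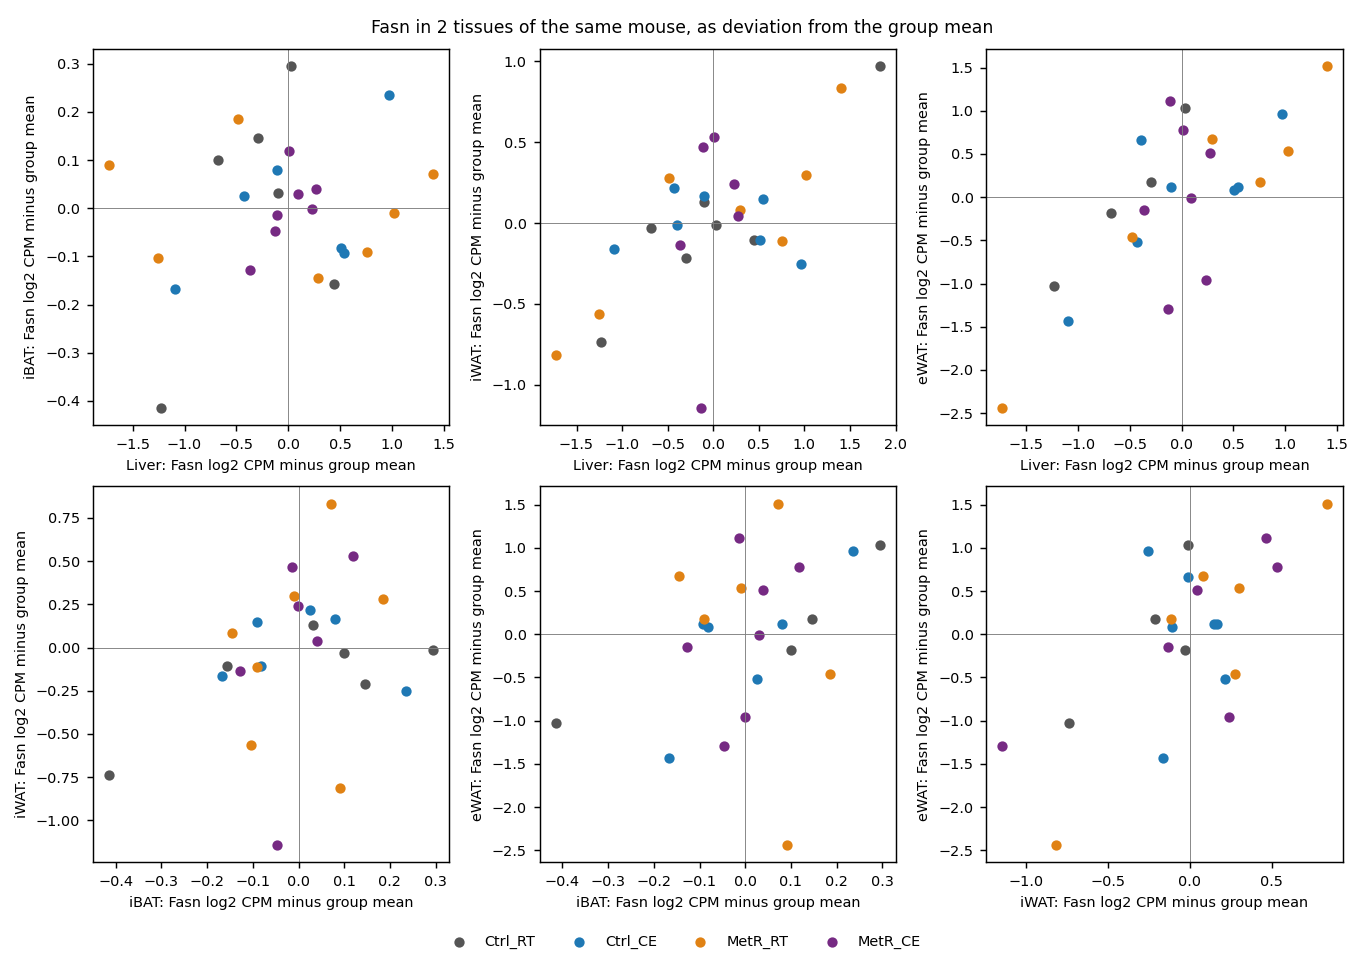
Log2 CPM of Fasn minus the group mean in one tissue against another of the same mouse, 1 point per mouse and 1 panel per tissue pair, coloured by group. The panels of liver with eWAT and with iWAT and of the white depots rise from lower left to upper right, with r of 0.730, 0.630 and 0.673, and those with iBAT scatter.

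The 5 genes whose log2 CPM followed Fasn most closely overlapped in part between tissues. They are given as a description over libraries that share their groups, by Pearson's r among genes of at least 10 CPM on average. In the 28 livers they were Acly (0.957), Slc25a44 (0.952), Thrsp (0.940), Gpam (0.937) and Shmt1 (0.901), among them Thrsp, a cofactor of lipogenesis, and Gpam, the mitochondrial glycerol-3-phosphate acyltransferase. In 26 iBAT libraries they were Pdk1 (0.904), Slc25a1 (0.899), Zfp523 (0.887), Tmem143 (0.885) and Acaca (0.880), of which Slc25a1 is the mitochondrial citrate exporter. In 27 iWAT libraries they were Sorl1 (0.981), Tkt (0.971), Pmvk (0.970), Pgd (0.965) and Nsdhl (0.961), where Tkt and Pgd belong to the pentose phosphate pathway and Pmvk and Nsdhl to cholesterol synthesis. In 24 eWAT libraries they were Acaca (0.986), Parm1 (0.973), Elovl6 (0.973), Acly (0.970) and Slc25a1 (0.970). Members of the group itself followed Fasn unevenly. Acly reached r = 0.957 in liver, 0.970 in eWAT and 0.567 in iBAT, Elovl6 0.894 in liver and 0.163 in iBAT, Srebf1 0.503 in liver and 0.019 in iBAT, and Mlxipl -0.360 in liver and 0.654 in iBAT. In iWAT, Elovl6 reached 0.960 (rank 6) and Acly 0.953 (rank 10), close behind the genes listed there, and Mlxipl reached 0.879 and Srebf1 0.787.

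A further 44 genes of the pathway, in lists of NADPH supply, carbon supply, other elongases and desaturases, glycerolipid synthesis and regulators, were counted in full. The lists were chosen with earlier results of these data known. The study itself names Me1, Acss2, Slc25a1 and Angptl8 among the genes that diet and cold regulate antagonistically in eWAT. The counts beside the share of all genes are therefore a description. In liver, cold on the control diet raised 18 of 44 and lowered 2, where 7.28% of all genes rose and 4.64% fell, with all 4 genes of NADPH supply higher, led by Me1, the cytosolic malic enzyme (2.50 ± 0.30, adjusted p = 2.73e-07). Of the 6 genes of carbon supply 3 rose, Acss2, Slc2a4 and Pklr, and of 7 of glycerolipid synthesis 3 rose, Gpam (1.48 ± 0.24, adjusted p = 1.91e-05), Lpin2 and Lpin1. Of 16 regulators and cofactors Thrsp (2.10 ± 0.52, adjusted p = 0.00252), Pnpla3 and Insig1 rose and Angptl8 fell, and of 11 other elongases and desaturases 5 rose, among them Fads3 (1.75 ± 0.32, adjusted p = 8.70e-05) and Elovl5 (1.43 ± 0.25, adjusted p = 6.82e-05), and Elovl3 fell. Restriction at room temperature raised 6 and lowered 2 (background 2.88% and 4.02%), and both stimuli raised 12 and lowered 2 (background 6.25% and 7.22%). Me1 rose in both (1.51 ± 0.29, adjusted p = 0.000295 and 2.10 ± 0.29, adjusted p = 1.63e-06), and Elovl3, an elongase of saturated very long chains, fell in both (-1.53 ± 0.53, adjusted p = 0.0394 and -2.43 ± 0.54, adjusted p = 0.000809).

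In iBAT, 8 of 43 rose and 5 fell after cold on the control diet, where 4.98% of all genes rose and 9.73% fell. Dgat2, which makes triglyceride from diacylglycerol, fell after cold (-1.20 ± 0.14, adjusted p = 8.28e-08) while Dgat1, which catalyses the same step, rose (0.94 ± 0.08, adjusted p = 4.12e-10), and Elovl3 rose (2.18 ± 0.13, adjusted p = 4.94e-13). After restriction 5 rose and 2 fell (background 0.535% and 1.97%), and after both stimuli 9 rose and 3 fell (background 4.36% and 10.3%). In iWAT 22 of 43 rose and none fell after cold (background 5.99% and 9.94%), 9 rose after restriction (background 4.25%) and 11 rose and 1 fell after both (background 8.05% and 14.4%), with Elovl3 the largest rise in each (3.40 ± 0.61, adjusted p = 0.000134, 2.93 ± 0.60, adjusted p = 0.000753 and 4.07 ± 0.64, adjusted p = 1.28e-05). In eWAT 8 of 44 rose after cold (background 0.979%) and 14 were lower in MetR_CE than in Ctrl_CE (background 2.12%). None was called by edgeR after restriction or both stimuli (12 and 3 had an unadjusted p under 0.05), where 0.115% and 1.30% of all genes were called. The 8 included Elovl3 (4.64 ± 1.07, adjusted p = 0.0140), Angptl8 (3.99 ± 0.86, adjusted p = 0.00921), Mid1ip1, a partner of acetyl-CoA carboxylase (2.11 ± 0.40, adjusted p = 0.00383), and Me1 (2.25 ± 0.59, adjusted p = 0.0275). The interaction was called lower for 4, 1, 9 and 14 of these genes in liver, iBAT, iWAT and eWAT and higher for 0, 1, 0 and 0, where 0.682%, 0.125%, 1.14% and 1.20% of all genes were lower and, in iBAT, 0.247% higher, and they had median interaction estimates of -0.20, -0.08, -0.50 and -0.52 on the log2 scale.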

How the data were processed

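The values are gene counts that the authors deposited as 3 tables, 1 for liver, 1 for iBAT and iWAT and 1 for eWAT, with 56884 gene rows and only whole numbers. Per the study's methods, libraries were made with a NEBNext Ultra II kit, reads were aligned with STAR 2.7.9a to mm10 and counted with featureCounts 2.0.3, and Salmon 1.9.0 with tximport was run in parallel. The names of the tables point to Salmon, whose estimates need not be whole, while all values are whole, and the methods do not say which output was deposited. Gene symbols were matched by gene ID (51948 of the IDs), and positions come from GENCODE vM21 on GRCm38 while the study names vM25.

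For each tissue, edgeR 4.0.16 under R 4.3.3 was run on genes whose counts came to 10 or more in all, scaled by TMM, with the quasi-likelihood test and all 4 groups in the fit. The interaction is the effect of cold under MetR minus that under Ctrl. Tissues were compared in 1 fit over all libraries, with 1 spread per gene for all tissues, called by adjusted p alone. Alternatives were DESeq2 1.42.0, limma 3.58.1 voom, other filters and scalings, replicate or mouse blocks, all libraries, and leaving out each library. Alternatives with libraries added back or without marker-rich libraries, and leaving out single liver, iBAT and iWAT libraries, were chosen after seeing the data.

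The study gives how many libraries it removed per group. Their identity was taken as the subset whose mean counts come closest to the study's, with a median deviation of 0.2508% in iBAT (the next of 8 subsets gave 1.148%) and 0.1511% in eWAT (the next of 246 gave 0.775%). The mouse pairs the tissues by the labels, and same-mouse deviations from group means correlated with a median r of 0.106 to 0.283 over 6577 genes. Each group's libraries come from separate mice. Totals of 6987895 to 33444374 counts per library set the counting error.

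All 10 members are described. The further pathway genes were counted in full, and named with a value where called, at most the 3 of largest change per list and comparison. One gene that is part of these counts is not reported here by name. Members and lists were chosen with earlier results of these data known. Scripts were tested on simulated data.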

Additional observations from a re-analysis of the deposited data

Results flagged for a closer look

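Within groups of 4 to 7 libraries, the highest or lowest library of a member stood apart from the others by Dixon's test in 13 of 157 gene-by-group sets (8.28%), where chance flags about 1 in 20. Ctrl_CE replicate 4 in eWAT was the lowest for 3 members, Elovl6 at 74.9 CPM, Scd1 at 8591 CPM and Scd2 at 410.0 CPM. The same mouse was also the lowest for Scd1 in iWAT at 34324 CPM and for Scd3 in iBAT at 0.992 CPM. The other lowest libraries were Scd1 in Ctrl_RT replicate 1 of iBAT at 31167 CPM and of iWAT at 23481 CPM, Scd2 in iBAT MetR_CE replicate 4 at 667 CPM, Mlxipl in iBAT Ctrl_CE replicate 3 at 516 CPM and Acacb in eWAT Ctrl_CE replicate 3 at 254.7 CPM. The highest were Scd2 in liver Ctrl_CE replicate 2 at 15.05 CPM, Scd3 in eWAT Ctrl_RT replicate 6 at 0.800 CPM and Mlxipl in iWAT Ctrl_RT replicate 5 at 529 CPM.

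The log2 effect of cold differed between the diets by edgeR's interaction term for Elovl6 in liver (-1.91), for Fasn (-1.47) and Scd2 (-1.84) in iWAT, and in eWAT for Acly (-4.83), Acaca (-2.89), Fasn (-3.81), Elovl6 (-4.69), Scd2 (-3.64), Scd3 (-3.04) and Srebf1 (-1.34), all smaller or more negative under restriction. With all 28 libraries none of these eWAT calls was made, where 0.00318% of all genes were called, and the estimates were -4.04 for Acly, -3.35 for Fasn and -3.57 for Elovl6. The log2 fold change of liver minus the mean of the depots differed from 0 after cold for Acacb (1.47), Fasn (1.31), Scd1 (1.40) and Mlxipl (-0.84), and after both stimuli for Acaca (1.12), Acacb (1.03), Elovl6 (1.42) and Mlxipl (-0.58). Among single depots, in the fit without the mouse block, Fasn and Scd1 differed after cold from iBAT alone.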

How the results depend on the processing

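No called value changed sign under any alternative run. The numbers of members called that moved by more than 1.5 times are given by setting. They stand without the share of all genes called under the same setting, so they show only how far the counts moved. DESeq2 called 4 for the liver interaction, 5 for iWAT MetR_RT against Ctrl_RT, 7 for the iWAT interaction, 2 for iWAT MetR_CE against MetR_RT, and in eWAT 7 for cold, 7 for MetR_CE against MetR_RT and 1 for restriction at room temperature. With edgeR's filterByExpr the liver interaction gave 2, the iWAT interaction 6, eWAT cold 5 and eWAT MetR_CE against MetR_RT 1. With only the groups compared in the fit, liver MetR_CE against Ctrl_CE gave 6, iBAT cold 1 and eWAT cold 1. By adjusted p alone iBAT gave 8 for cold, 6 for MetR_RT, 1 for the interaction, 7 for MetR_CE against MetR_RT and 3 against Ctrl_CE. Grouping by treatment tag, which disagrees with the labels of the same mice in the other tissues, gave 1 for iBAT cold. RLE scaling gave 4 for the iWAT interaction, and no low-count filter 1 for eWAT cold. With the replicate block the iWAT interaction gave 5, eWAT cold 5 and eWAT MetR_CE against Ctrl_RT 0. By the labels, same-numbered mice of different groups share only a number. Of their pairs, 6 of 42 correlated over 0.1 in liver, 13 of 36 in iBAT, 17 of 39 in iWAT and 17 of 30 in eWAT. The median r was 0.0002, 0.029, 0.087 and 0.134 in that order. Whether something tied to the number links the white depot libraries was not tested. All eWAT libraries gave 4 for cold, 2 for MetR_CE against Ctrl_RT and 0 for the interaction. Among alternatives chosen after seeing the data, leaving out the muscle-rich library gave 1 for the iWAT interaction. Leaving out the epididymis-rich libraries, eWAT MetR_RT replicate 2 and MetR_CE replicate 1, gave 1 for eWAT cold. Adding back Ctrl_RT replicate 2 gave 6 for eWAT cold and 2 for MetR_CE, adding back Ctrl_RT replicate 4 gave 7 for cold, and adding back MetR_RT replicate 7 gave 0 for both and 1 for MetR_CE against MetR_RT. For liver minus the mean of the depots voom gave 2 after cold and 2 after both stimuli. Without 1 library at a time, the counts for cold, MetR_RT and MetR_CE against Ctrl_RT, the interaction, and MetR_CE against MetR_RT and against Ctrl_CE ran from 6 to 7, 1 to 4, 3 to 5, 1 to 5, 1 to 2 and 2 to 5 in liver, 1 to 3, 2 to 3, 3 to 4, 0 to 0, 2 to 3 and 0 to 0 in iBAT, 7 to 9, 1 to 7, 1 to 3, 1 to 7, 1 to 2 and 0 to 3 in iWAT, and 0 to 7, 0 to 0, 0 to 1, 6 to 8, 0 to 6 and 7 to 8 in eWAT. Of single-gene values, 1542 kept their side of the threshold and 111 did not when 1 library was left out, and under the other settings, single-depot differences included, 701 stayed, 56 did not and 9 single-depot counts moved by more than 1.5 times. Scd3 in liver had at most 3 counts a library, so no change of it there was detectable at this depth.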
